A study of Homo sapiens with 27 samples.

Results

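The 9 genes described here belong to the NRF2 antioxidant programme and to ferritin, and were followed through proliferation, quiescence, senescence and endoplasmic reticulum stress. They were NFE2L2, HMOX1, NQO1, GCLM, GCLC, TXNRD1, SRXN1, FTH1 and FTL, taken by symbol from the gene identifiers, 9 of the 60534 identifiers that all libraries shared. All libraries came from IMR90, a fibroblast line derived from human fetal lung, labelled wild type except in the thapsigargin libraries, whose labels give no genotype. RNA-seq measured mRNA, and Ribo-seq measured footprints, the mRNA fragments that ribosomes shield from RNase. There were 13 RNA-seq and 14 Ribo-seq libraries, in 5 states. Cycling cells were harvested below confluence and gave 2 RNA-seq and 3 Ribo-seq libraries. Quiescent cells had been arrested by contact inhibition and gave 3 of each type. Irradiated senescent cells had received 15 Gy and were harvested on day 10, and etoposide senescent cells had received the topoisomerase poison at 50 µM in 3 treatments over 10 days. Either senescent state gave 3 libraries of each type. The last state was cycling cells given 25 nM thapsigargin for 3 h, a blocker of the pump that fills the endoplasmic reticulum with calcium, with 2 libraries of each type. The thapsigargin medium is described without the antibiotics named for the other states. All states came from a single line, and no label says that replicates were separate cultures, so the p-values measure the spread between these libraries only.

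NRF2, the product of NFE2L2, is a transcription factor that KEAP1 holds in the cytoplasm and hands to the proteasome. When oxidants or electrophiles modify KEAP1, NRF2 accumulates, pairs with a small MAF protein and binds antioxidant response elements in the promoters and enhancers of genes for glutathione synthesis, thioredoxin reduction, quinone and heme breakdown and iron storage. Much of NRF2's control is on protein stability, so its mRNA need not follow its activity. Ferritin, a shell of FTH1 and FTL chains that stores iron, is also controlled in translation: a hairpin in the leader of its mRNAs, the iron-responsive element, is bound by iron regulatory proteins when iron is scarce, and the ribosome is then kept off.

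Matches to the letters of both elements are shown first, to let a reader see which of the genes carry them near the start. A match is a description, not a site shown to act. RefSeq promoter windows (GRCh38.p14), 250 bases before to 50 after each start, were found for 7 of the 9 genes. HMOX1 and FTH1 had no window in that table. The element core TGACNNNGC, searched on both strands, was in the windows of 2 of the 7 genes, GCLM and TXNRD1, in 13.3% of all 35116 windows and in 16.1% of the 27305 genes with a window. The GCLM match began 34 bases before its start, at chr1:93909446-93909474 on the minus strand. TXNRD1 had windows at a pair of starts, with matches beginning 99 bases before the upstream one (chr12:104215670-104215698) and 102 bases before the downstream one (chr12:104286920-104286948), both on the plus strand. A further TXNRD1 match, 8 bases before the upstream start, is not shown. Capitals mark the core, which reads as its reverse complement in GCLM and in the downstream TXNRD1 window.
GCLM: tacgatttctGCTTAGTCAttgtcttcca
TXNRD1 upstream start: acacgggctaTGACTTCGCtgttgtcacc
TXNRD1 downstream start: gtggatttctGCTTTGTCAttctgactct
The AP-1 site TGANTCA, present in 7.71% of windows, and the longer form TGACTCAGC, which contains an AP-1 site and was present in 0.561% of windows, had no match in these 9 windows. The absence of these letters says nothing of elements elsewhere in the gene.

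The ferritin hairpin was searched on the sense strand of the 50 bases after each start, as a C, 5 bases, CAGTGN and 5 bases that pair with the first 5, with G-U pairs allowed. It was found in 8 windows, 0.0228% of all, and FTL was the single gene of the set among them. ALAS2, the erythroid enzyme of heme synthesis known for the same element, was another. In FTL the loop covered bases 39 to 44 after the start, and its capitals mark that loop at chr19:48965329-48965358 on the plus strand.
FTL: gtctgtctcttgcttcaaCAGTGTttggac

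Libraries held 20635503 to 57119841 (RNA-seq) and 1936976 to 19996104 (Ribo-seq) counts on genes. The thapsigargin libraries stood apart: 1.35 to 1.40% of their RNA-seq reads were unmapped against 27.8 to 40.6% in the other states, 65.2 to 66.9% of their Ribo-seq reads mapped to several places, and their Ribo-seq depth was 1936976 to 2044900 counts. Their Ribo-seq files listed 62703 gene identifiers, as the RNA-seq files did, against 60664 in the Ribo-seq files of the other states. Treatment and these differences in the libraries cannot be told apart. The cycling RNA-seq libraries differed too. In library 2, 33.4% of reads mapped to several places, 10.7% of gene counts lay on the opposite strand and 10.9% of unique reads on no gene. These shares were 13.2%, 5.88% and 4.79% in library 1. Library 2 had the lowest RNA-seq depth, 20635503 counts, and was the only cycling RNA-seq library in fits without library 1. Cell state markers moved by group: LMNB1, a nuclear lamin lost in senescence, was 69.7 to 82.7 CPM (normalised counts-per-million) in cycling and 3.94 to 6.71 CPM in senescent RNA. The proliferation marker MKI67 was 144 to 167 CPM in cycling RNA and 41.3 to 148 CPM in quiescent RNA, so the quiescent range reached into the cycling range. Fibroblast markers were present throughout, and the endothelial and immune markers did not pass 2.63 CPM. Of 6 epithelial markers, 5 stayed at or below 1.13 CPM, and KRT19 was 89.0 to 96.3 CPM in thapsigargin RNA against 1.99 to 22.2 CPM elsewhere. In these bulk samples fewer cells of a type and less RNA per cell cannot be told apart.

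Most of these genes were higher in senescent cells of either kind, in mRNA and in footprints. Against cycling cells, 7 of the 9 mRNAs passed the test as higher in irradiated cells and 8 in etoposide cells, with none lower. Leaving out single libraries lowered the etoposide count to 3 without cycling library 1, 6 without cycling library 2 and 6, 6 and 5 without etoposide library 1, 2 or 3, and the irradiated count to 6 at the lowest. Of all 13289 genes tested, 34.9% were called in the irradiated comparison (16.2% higher) and 34.5% in the etoposide comparison (16.8% higher). Among footprints, 8 of the 9 were higher in irradiated cells, where 40.6% of 11762 genes were called (19% higher), and 8 in etoposide cells, where 33.9% were called (16.8% higher). In quiescent cells 3 mRNAs and 2 footprint levels were higher, beside 15.6% of mRNAs (5.18% higher, 10.4% lower) and 22.4% of footprint levels (8.15% higher) called over all genes. The quiescent mRNA count was 0 without cycling library 1, 1 without cycling library 2 and 2 without quiescent library 1 or 2. In thapsigargin cells 1 mRNA was higher and 2 lower, with 24.5% called over all genes (11.7% higher), and 1 footprint level was higher and 3 lower, with 44.6% called (23.6% lower). All 9 passed the filter on low counts in both assays. A call is an adjusted p under 0.05 in edgeR's quasi-likelihood test, with Benjamini-Hochberg adjustment over all genes. All these comparisons share the cycling libraries. The median log2 difference of the 9 genes was 1.02 in irradiated and 0.72 in etoposide mRNA, where that of all genes was 0.03 and 0.002.

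**Figure D1:**
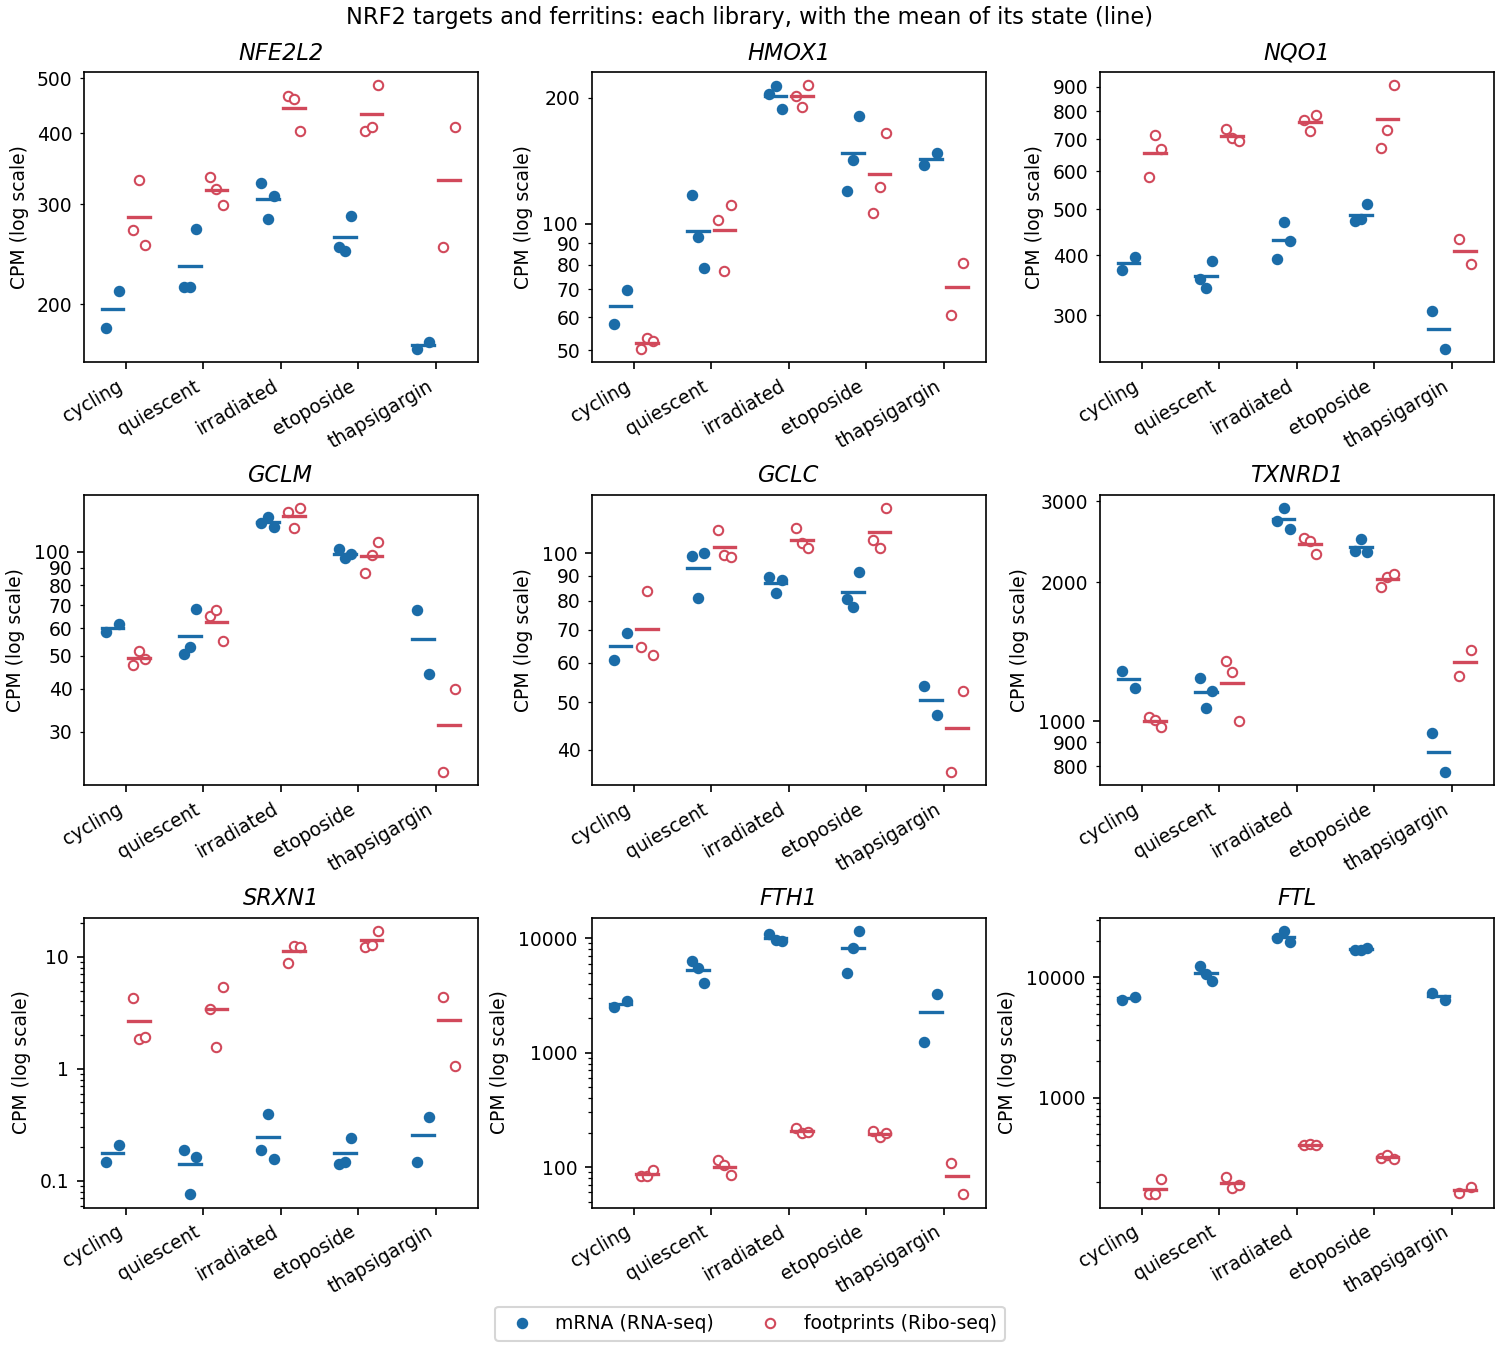
Level of each gene in every library, as normalised counts-per-million on a log axis that differs between panels, for mRNA (filled) and footprints (open) in the 5 states; lines are means over 2 or 3 libraries. The irradiated and etoposide libraries lie above all others for GCLM, TXNRD1 and FTL, in mRNA and footprints, and SRXN1 mRNA stays under 0.4 CPM.

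**Figure D2:**
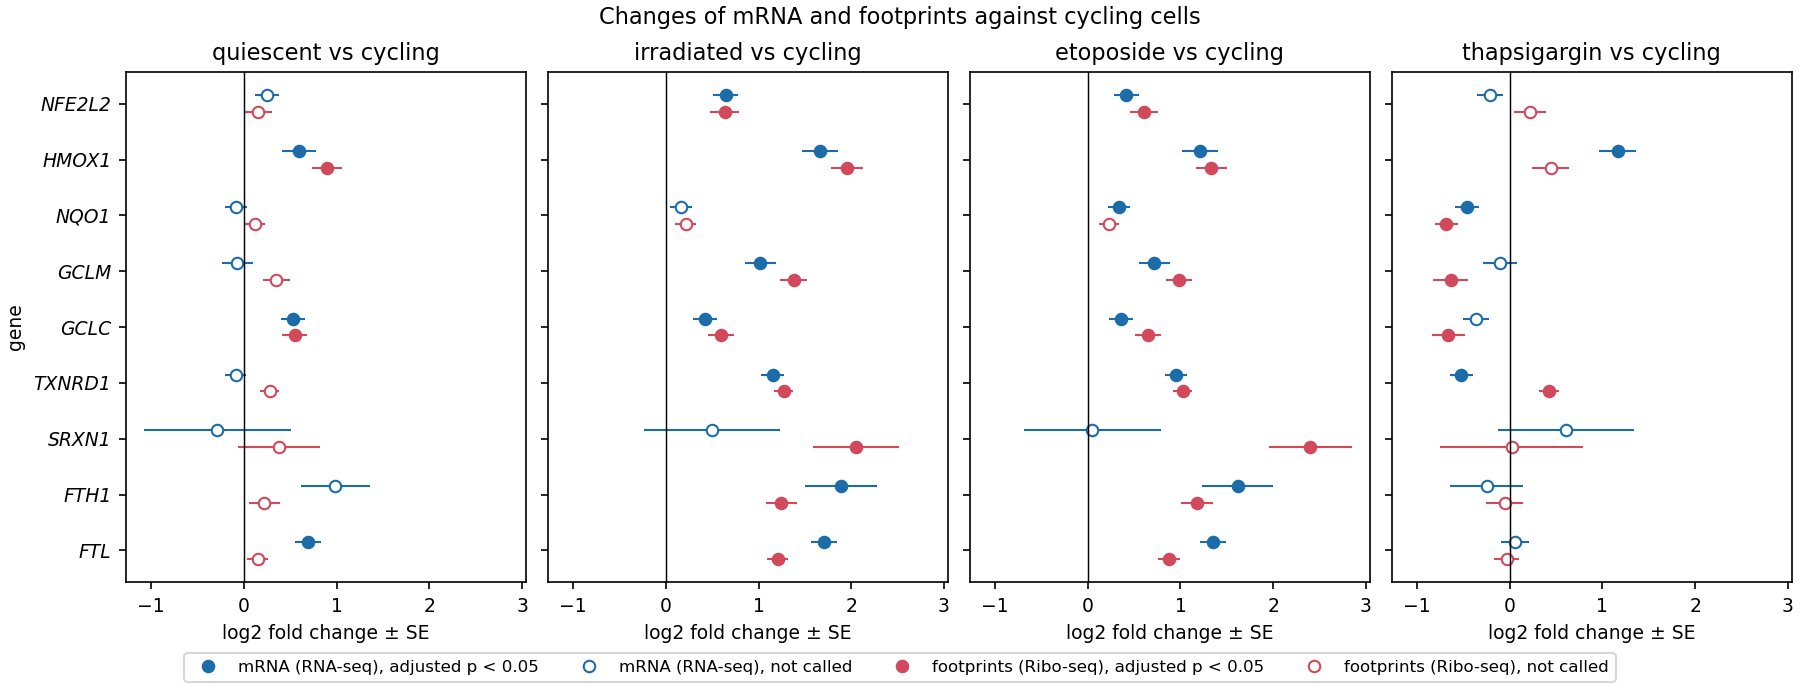
Log2 fold change against cycling cells with its standard error, for mRNA (blue) and footprints (red); filled points passed an adjusted p of 0.05 in edgeR's test. Points lie right of 0 in both senescent comparisons, and TXNRD1 and HMOX1 split between mRNA and footprints under thapsigargin.

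NFE2L2, the gene of the regulator itself (chromosome 2, 177230303 to 177264727), rose modestly in senescence. Its mRNA was at 181 and 211 CPM in the cycling libraries, 215, 215 and 271 CPM in quiescent, 327, 283 and 310 CPM in irradiated, 252, 248.5 and 286 CPM in etoposide and 167 and 172 CPM in thapsigargin cells. Every senescent library lay above both cycling libraries, and a quiescent library reached into the etoposide range. The mRNA rose by 0.64 ± 0.13 (log2, SE) in irradiated cells (adjusted p = 0.00204, edgeR) and by 0.42 ± 0.13 in etoposide cells (adjusted p = 0.0254). The etoposide call was lost without cycling library 1 (0.31, adjusted p = 0.236) or etoposide library 3 (0.35, adjusted p = 0.0844). Footprints rose by 0.64 ± 0.15 and 0.60 ± 0.15 (adjusted p = 0.00462 and 0.00742), from 285 ± 40.7 CPM (SD, n = 3) in cycling to 443 ± 33.6 CPM in irradiated and 433 ± 45.7 CPM in etoposide cells. In thapsigargin cells the footprint libraries were at 253 and 411 CPM, so far apart that the difference of 0.22 ± 0.17 from cycling was not called (adjusted p = 0.323). Without thapsigargin Ribo-seq library 1 it was 0.48 (adjusted p = 0.0321), and without library 2 it was -0.18.

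HMOX1, the inducible heme oxygenase that breaks heme into biliverdin, carbon monoxide and iron (chromosome 22, 35381096 to 35394207), was higher in all 4 other states. Its mRNA was at 57.9 and 69.7 CPM in cycling, 117, 93.0 and 78.7 CPM in quiescent, 204, 214 and 188 CPM in irradiated, 120, 142 and 181 CPM in etoposide and 138 and 148 CPM in thapsigargin cells. No library of another state was as low as a cycling one, and all irradiated libraries lay above all etoposide libraries. The order of the means was irradiated, etoposide, thapsigargin, quiescent and cycling, and only the etoposide and thapsigargin ranges overlapped. The rise was 1.66 ± 0.19 in irradiated (adjusted p = 2.34e-05), 1.21 ± 0.19 in etoposide (0.00026) and 1.16 ± 0.20 in thapsigargin cells (0.00115). In quiescent cells it was 0.60 ± 0.19 with an adjusted p of 0.0446, a call lost without cycling library 1 (0.47), cycling library 2 (0.73), quiescent library 1 (0.43) or quiescent library 2 (0.64), where the adjusted p ran from 0.0596 to 0.34.

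HMOX1 footprints were at 50.4, 53.4 and 52.6 CPM in cycling and 102, 77.3 and 111 CPM in quiescent cells. They were at 202, 190 and 214 CPM in irradiated, 106, 123 and 165 CPM in etoposide and 60.8 and 80.9 CPM in thapsigargin cells. Cycling libraries were again the lowest, and the thapsigargin libraries, high in mRNA, came next and overlapped with the quiescent range. Footprints rose by 0.89 ± 0.16 in quiescent (adjusted p = 0.00206), 1.95 ± 0.17 in irradiated (1.34e-06) and 1.33 ± 0.17 in etoposide cells (3.48e-05). The thapsigargin difference of 0.44 ± 0.20 was not called (adjusted p = 0.085).

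NQO1, a quinone reductase often used as a readout of NRF2, was lower under thapsigargin and differed little between the other states. Its mRNA was at 373 and 396 CPM in cycling, 357, 342 and 389 CPM in quiescent, 392, 470 and 429 CPM in irradiated, 472, 475 and 511 CPM in etoposide and 306 and 255 CPM in thapsigargin cells. Etoposide libraries were all above, and thapsigargin libraries all below, those of the other states. The etoposide difference was 0.34 ± 0.12 (adjusted p = 0.0411) and the thapsigargin difference -0.46 ± 0.13 (adjusted p = 0.0203). Neither held throughout: the etoposide call was lost whichever of its 5 libraries was left out (0.29 to 0.38, adjusted p 0.061 to 0.232), and the thapsigargin call without cycling library 1 (-0.50), cycling library 2 (-0.41) or thapsigargin library 2 (-0.31), with adjusted p 0.0644 to 0.147. Footprints gave 0.21 ± 0.11 in irradiated and 0.23 ± 0.11 in etoposide cells, not called (adjusted p = 0.138 and 0.12), and a fall of 0.68 ± 0.13 on the log2 scale in thapsigargin cells (adjusted p = 0.000793), where both libraries (432 and 384 CPM) lay below the lowest other library (583 CPM).

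GCLM and GCLC make the modifier and the catalytic subunit of glutamate-cysteine ligase, the rate-limiting enzyme of glutathione synthesis. GCLM is described first, and was high in senescent cells. GCLM mRNA was at 58.6 and 61.6 CPM in cycling, 50.5, 52.8 and 68.0 CPM in quiescent, 121, 126 and 118 CPM in irradiated, 102, 96.1 and 98.4 CPM in etoposide and 67.6 and 44.3 CPM in thapsigargin cells. Senescent libraries were above all others, and irradiated above etoposide ones. The rise was 1.02 ± 0.17 in irradiated (adjusted p = 0.000451) and 0.72 ± 0.17 in etoposide cells (adjusted p = 0.00501), the latter lost without cycling library 1 (0.68, adjusted p = 0.0565). GCLM footprints rose by 1.38 ± 0.15 and 0.98 ± 0.14 (adjusted p = 8.32e-06 and 0.000138), from 49.0 ± 2.25 CPM in cycling to 127 ± 8.70 and 97.1 ± 9.75 CPM. In quiescent cells the mRNA difference was -0.07 ± 0.17 and the footprint difference 0.35 ± 0.14, neither called (adjusted p = 0.825 and 0.0959). The footprint value passed without quiescent Ribo-seq library 3 (0.44, adjusted p = 0.0465).

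GCLC was higher than in cycling cells in quiescent as well as in senescent cells. Its mRNA was at 60.7 and 68.9 CPM in cycling, 98.7, 81.1 and 100 CPM in quiescent, 89.4, 83.2 and 88.3 CPM in irradiated and 80.7, 77.8 and 91.5 CPM in etoposide cells. The ranges of these last 3 states overlapped, and all lay above cycling. The differences were 0.53 ± 0.13 in quiescent (adjusted p = 0.0147), 0.42 ± 0.13 in irradiated (0.0207) and 0.36 ± 0.13 in etoposide cells (0.0431). They were small and depended on single libraries: without cycling library 1 they were 0.44, 0.33 and 0.27 (adjusted p = 0.181, 0.198 and 0.296), the quiescent and etoposide calls were also lost without cycling library 2 (0.62 and 0.45), the irradiated call without irradiated library 1 (0.40) or 3 (0.41), and the etoposide call without any of its own libraries (0.29 to 0.41). Footprints rose by 0.55 ± 0.14 in quiescent (adjusted p = 0.0118), 0.60 ± 0.14 in irradiated (0.00394) and 0.65 ± 0.14 in etoposide cells (0.00247), the first lost without cycling Ribo-seq library 1 (0.46, adjusted p = 0.0682) or 3 (0.47, adjusted p = 0.0618).

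Under thapsigargin, footprints of both ligase subunits fell. With 4 of the 9 genes called in these footprints, the set was near the share over all genes, 44.6% (23.6% lower). GCLM was at 23.0 and 39.9 CPM and GCLC at 36.2 and 52.5 CPM, below every cycling library. The change was -0.64 ± 0.19 for GCLM (adjusted p = 0.0154) and -0.66 ± 0.18 for GCLC (adjusted p = 0.00831). With only the 2 states in the fit they were -0.66 and -0.69, neither called (adjusted p = 0.0823 and 0.0588). Without thapsigargin library 1 they were -0.34 and -0.46 (adjusted p = 0.147 and 0.0835), and without library 2 GCLM was at -1.10. The mRNA differences, -0.10 ± 0.18 and -0.36 ± 0.14, were not called (adjusted p = 0.722 and 0.0785). Beside these values, the summed footprints of 7 fibroblast markers were 12370 to 12920 CPM in thapsigargin and 32560 to 34770 CPM in cycling cells, and KRT19 footprints were 150.1 to 153 CPM and 23.1 to 40.9 CPM. Of the 7 footprint levels 6 were called lower and 0 higher. COL1A1 was at 1794 to 1912 and 11430 to 12770 CPM, and VIM at 8967 to 9859 and 8569 to 10250 CPM. The same sum in RNA was 9362 to 10430 CPM in thapsigargin and 8930 to 12690 CPM in cycling cells. The part of these differences in the ligase values was not tested.

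TXNRD1, the cytosolic thioredoxin reductase, a selenoprotein that keeps thioredoxin reduced, was about doubled in senescent cells. Its mRNA was at 1283 and 1183 CPM in cycling, 1243, 1068 and 1164 CPM in quiescent, 2712, 2899 and 2613 CPM in irradiated, 2343, 2486 and 2333 CPM in etoposide and 942 and 778 CPM in thapsigargin cells. Irradiated libraries lay above etoposide ones, both far above cycling and quiescent, and thapsigargin lay below all. Its mRNA rose by 1.15 ± 0.12 in irradiated (adjusted p = 9.57e-06) and 0.95 ± 0.12 in etoposide cells (4.11e-05), and footprints by 1.27 ± 0.10 (6.38e-07) and 1.02 ± 0.10 (3.79e-06). In quiescent cells mRNA differed by -0.09 ± 0.12 and footprints by 0.28 ± 0.10, neither called (adjusted p = 0.671 and 0.0637). The quiescent footprint difference passed without quiescent library 3 (0.40, adjusted p = 0.00296).

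SRXN1, sulfiredoxin, reactivates overoxidised peroxiredoxins. Its mRNA had 2 to 21 counts per RNA-seq library, too few for a direction, and gave SEs of 0.60 to 0.79 on the log2 scale. Its footprints had 2 to 104 counts per library and were at 4.32, 1.84 and 1.91 CPM in cycling, 3.41, 1.55 and 5.33 CPM in quiescent, 8.87, 12.5 and 12.2 CPM in irradiated, 12.2, 12.9 and 17.1 CPM in etoposide and 4.38 and 1.05 CPM in thapsigargin cells. Senescent libraries were all above the rest. Footprints rose by 2.05 ± 0.46 in irradiated and 2.40 ± 0.44 in etoposide cells (adjusted p = 0.00305 and 0.00089), the highest fold changes of the 9 genes in either comparison. The thapsigargin difference, 0.02 ± 0.77, has no readable sign. Mean footprint level divided by mean mRNA level ran from 10.5 in thapsigargin to 79.5 in etoposide cells for SRXN1. No such ratio of the other genes passed 1.96. Why SRXN1 had so few mRNA counts beside its footprints was not tested, so its mRNA level is uncertain.

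FTH1 and FTL encode the heavy chain, which oxidises iron for storage, and the light chain of ferritin (chromosome 11, 61964285 to 61967634, and chromosome 19, 48965309 to 48966879). FTL mRNA was at 6497 and 6877 CPM in cycling, 12529, 10581 and 9373 CPM in quiescent, 21116, 24447 and 19866 CPM in irradiated, 16972, 16775 and 17538 CPM in etoposide and 7364 and 6546 CPM in thapsigargin cells. The states formed steps with no overlap between irradiated, etoposide, quiescent and the 2 lowest, cycling and thapsigargin, which overlapped. FTL mRNA rose by 1.71 ± 0.14 in irradiated (adjusted p = 1.54e-06), 1.35 ± 0.14 in etoposide (8.8e-06) and 0.70 ± 0.14 in quiescent cells (0.00476). The quiescent call was lost without cycling library 1 (0.65, adjusted p = 0.0683) and with only the 2 states in the fit (0.71, adjusted p = 0.0596).

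FTH1 mRNA was less even. It was at 2515 and 2846 CPM in cycling, 6350, 5520 and 4060 CPM in quiescent, 10781, 9683 and 9369 CPM in irradiated, 4917, 8129 and 11612 CPM in etoposide and 1242 and 3269 CPM in thapsigargin cells. Etoposide libraries reached from the quiescent range to above the irradiated one. The rise was 1.89 ± 0.39 in irradiated (adjusted p = 0.00193) and 1.62 ± 0.38 in etoposide cells (adjusted p = 0.00515). The etoposide call was lost without cycling library 1 (1.53, adjusted p = 0.0599). In quiescent cells the difference was 0.99 ± 0.37 (adjusted p = 0.0941), not called although all 3 libraries lay above both cycling ones, and it passed with only the 2 states in the fit (1.00, adjusted p = 0.0331). Together the ferritin chains took 0.843 to 0.908% of all gene counts in cycling RNA, 1.29 to 1.73% in quiescent, 2.58 to 2.92% in irradiated, 1.97 to 2.61% in etoposide and 0.864 to 0.978% in thapsigargin RNA.

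Ferritin has many near-identical processed pseudogenes, and reads that match several places are in no gene's count, so the ferritin levels are uncertain. Of the counts on FTH1 and 25 of its pseudogenes, 0.301 to 0.591% were on the pseudogenes in RNA of the other 4 states and 3.83 to 3.87% in thapsigargin RNA. For FTL and 16 pseudogenes the range over those states ran up to 0.00302%, against 0.850 to 0.981% in thapsigargin RNA. In footprints, which are short, the pseudogene share was 1.48 to 11.3% for FTH1 and 0.289 to 0.996% for FTL over all libraries. The ferritin values of thapsigargin RNA were thus counted with another share on pseudogenes, and the thapsigargin differences (FTH1 -0.25 ± 0.39, FTL 0.06 ± 0.15, adjusted p = 0.688 and 0.816) were not called. The thapsigargin RNA library with 1242 CPM of FTH1 had 38.0% of its reads mapping to several places, and that with 3269 CPM had 19.7%. Etoposide libraries ranked likewise (4917, 8129 and 11612 CPM with 17.9, 16.3 and 13.3%). Elsewhere the FTH1 level was higher where this share was higher. Quiescent libraries had 6350, 5520 and 4060 CPM with 20.8, 18.5 and 9.43%. Irradiated ones had 10781, 9683 and 9369 CPM with 21.2, 19.6 and 18.0%, and cycling ones 2515 and 2846 CPM with 13.2 and 33.4%. Whether this share bears on the FTH1 level was not tested.

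**Figure D3:**
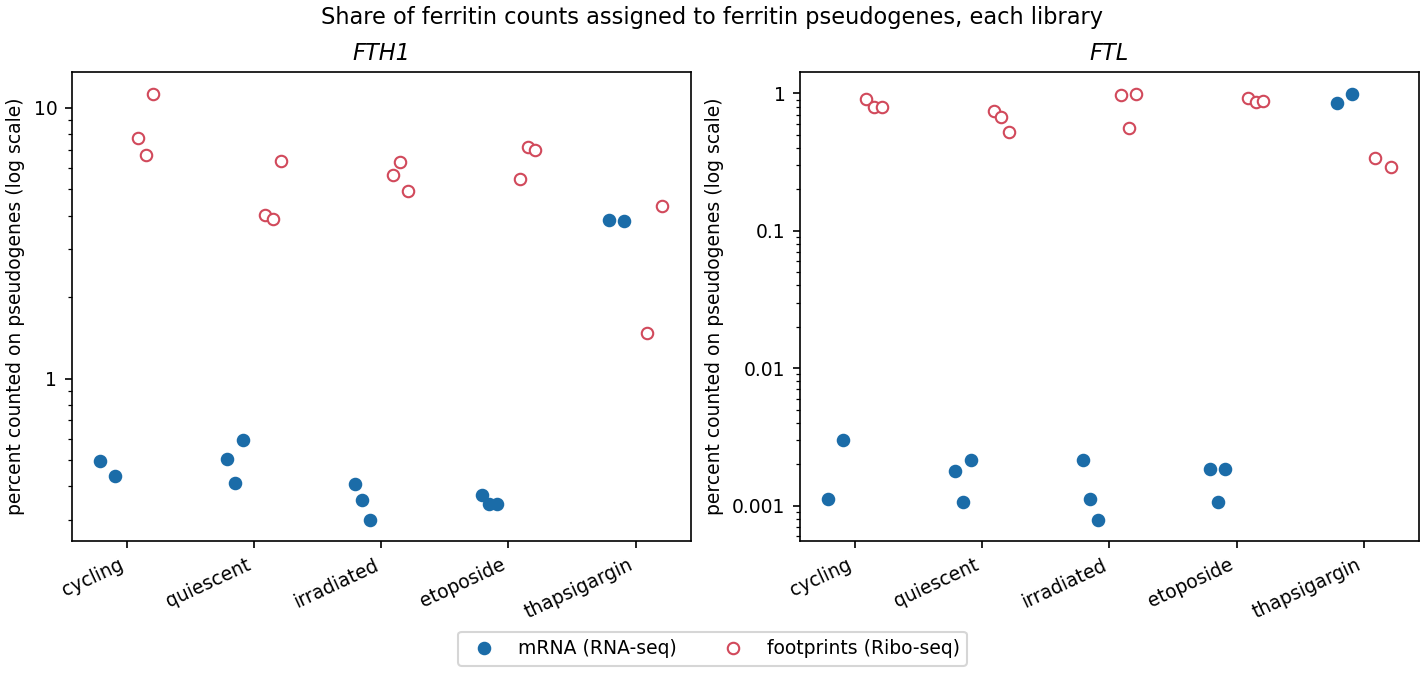
Percent of the counts on a ferritin gene plus its pseudogenes that fell on the pseudogenes, on a log axis, in each library (filled, RNA-seq; open, Ribo-seq). For RNA-seq the 2 thapsigargin libraries stand above all others for FTH1 (3.83 to 3.87%) and FTL (0.850 to 0.981%).

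Ferritin footprints rose in senescence too, but were few beside the mRNA. FTL footprints were at 157, 158 and 210.2 CPM in cycling, 217, 178 and 187 CPM in quiescent, 400.3, 408 and 403 CPM in irradiated, 316, 336 and 311 CPM in etoposide and 162 and 181 CPM in thapsigargin cells. Quiescent libraries, set apart in mRNA, overlapped with cycling ones in footprints. FTL footprints rose by 1.21 ± 0.12 in irradiated and 0.87 ± 0.12 in etoposide cells (adjusted p = 3.6e-06 and 5.48e-05), and those of FTH1 by 1.25 ± 0.17 and 1.18 ± 0.17 (adjusted p = 7.17e-05 and 0.00011), from 86.8 ± 6.17 CPM in cycling to 206 ± 11.0 and 196 ± 10.9 CPM. The FTH1 etoposide footprint call was lost with both strands counted (1.03, adjusted p = 0.0679), over alternatives with adjusted p from 1.05e-10 to that value. In quiescent cells the footprint differences were 0.15 ± 0.11 for FTL and 0.22 ± 0.17 for FTH1, not called (adjusted p = 0.409 and 0.39).

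The footprint change was set against the mRNA change in a single model, whose interaction term is called the translation difference here. A value below 0 means that footprints changed less than mRNA. For FTL, whose leader holds the hairpin shown above, it stood at -0.45 ± 0.20 for quiescent, -0.41 ± 0.20 for irradiated and -0.53 ± 0.20 for etoposide cells relative to cycling, with unadjusted p of 0.0319, 0.0459 and 0.0123 and adjusted p of 1, 0.737 and 0.951. None was called. The same 3 values for FTH1 were -0.66 ± 0.41, -0.56 ± 0.41 and -0.49 ± 0.41 (adjusted p = 1, 0.877 and 1). With only irradiated and cycling libraries in the fit, FTH1 was called at -0.69 (adjusted p = 0.00763), in a fit that called 758 genes against 6 in the fit of all states. The 3 comparisons share the cycling libraries and so the same cycling ratio. Mean footprint level divided by mean mRNA level was 0.0262 for FTL in cycling, 0.0179 in quiescent, 0.0185 in irradiated, 0.0188 in etoposide and 0.0246 in thapsigargin cells. Few translation differences were called: over all 11711 genes, 0.00854% in the quiescent, 0.0512% in the irradiated and 0.0683% in the etoposide comparison. None of the 9 genes was among them (3, 1 and 2 at an unadjusted p under 0.05 in edgeR, 0 in each by DESeq2). In simulated data the test recovered 30% of 2-fold translation differences between irradiated and cycling cells. That simulation gave every gene the same spread and changed 200 genes, with no other difference between states. Whether few genes differed or few were detected was not tested.

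Thapsigargin was the state in which translation differences were called widely, for 20.7% of genes, and TXNRD1 was the 1 gene of the 9 among them. TXNRD1 mRNA fell by 0.52 ± 0.13 on the log2 scale (adjusted p = 0.00981), while its footprints, at 1253 and 1431 CPM against 1024, 1007 and 971 CPM in cycling cells, rose by 0.42 ± 0.11 (adjusted p = 0.00787). Both thapsigargin libraries thus lay outside the cycling range in opposite directions. The translation difference was 0.89 ± 0.20 (adjusted p = 0.00255), and the ratio of mean footprints to mean mRNA was 1.56, against 0.811 in cycling and 0.852 to 1.05 in the other states. With only the 2 states in the fit the mRNA difference was -0.48 and not called (adjusted p = 0.105). The mRNA call was lost without cycling library 1 (-0.46, adjusted p = 0.0798) or thapsigargin library 2 (-0.37, adjusted p = 0.0874), and the footprint call without thapsigargin Ribo-seq library 2 (0.32, adjusted p = 0.081).

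HMOX1 went the other way, with mRNA up by 1.16 and footprints by 0.44, which was not called. Its translation difference of -0.77 ± 0.31 missed the threshold (adjusted p = 0.0742), as did that of GCLM, -0.59 ± 0.28 (adjusted p = 0.145). Without thapsigargin Ribo-seq library 2 both passed, at -1.04 (adjusted p = 0.0308) and -1.09 (adjusted p = 0.0122). GCLM also passed without thapsigargin RNA-seq library 2 (-0.83, adjusted p = 0.0369), and HMOX1 with all gene classes in the fit (-0.87, adjusted p = 0.0423). HMOX1's ratio of mean footprints to mean mRNA was 0.496 in thapsigargin cells and 0.817 to 1.01 in the others.

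**Figure D4:**
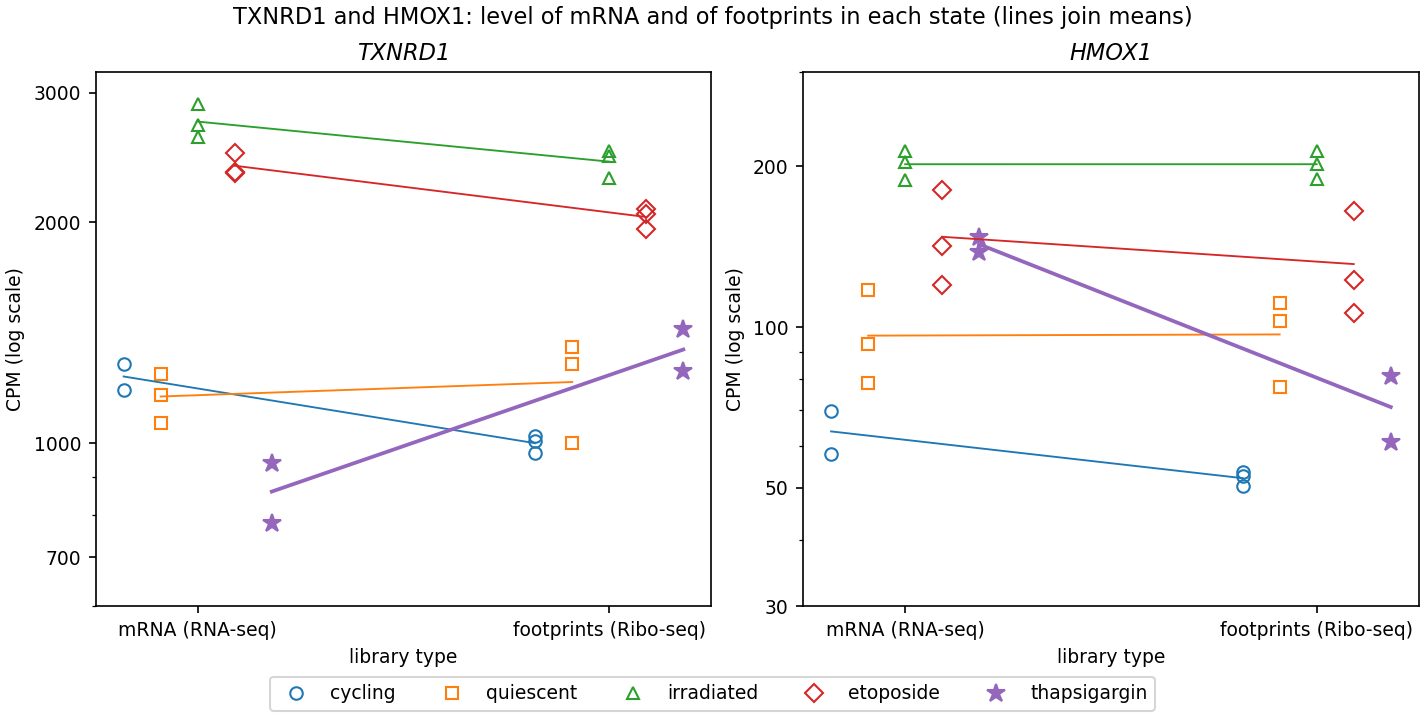
TXNRD1 and HMOX1 in every library, as normalised counts-per-million on a log axis, with mRNA at left and footprints at right; lines join the means of each state. The thapsigargin line (stars) rises from 860 to 1342 CPM for TXNRD1 and falls from 143 to 70.8 CPM for HMOX1, while the lines of the other states run nearly level.

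Irradiated and etoposide senescence were compared directly. No mRNA of the 9 passed the test, although 22.6% of all genes did (9.68% higher in irradiated cells). By unadjusted p under 0.05, 2 did: HMOX1 (0.45 ± 0.16 higher in irradiated, adjusted p = 0.0616) and FTL (0.35 ± 0.12, adjusted p = 0.0538). DESeq2 called 1, FTL (0.32, adjusted p = 0.0462). A fit of these 2 states alone called 3, HMOX1 (0.40, adjusted p = 0.0295), GCLM (0.25, adjusted p = 0.0296) and FTL (0.30, adjusted p = 0.0364), and HMOX1 also passed without etoposide library 3 (0.62, adjusted p = 0.0195). Among footprints, where 22.5% of genes were called, HMOX1 alone of the 9 was higher in irradiated cells, by 0.62 ± 0.16 (adjusted p = 0.015), and its 3 irradiated libraries lay above all 3 etoposide libraries. That call was lost without etoposide library 1 (0.47), etoposide library 2 (0.54), irradiated library 1 (0.60) or irradiated library 3 (0.58), with adjusted p of 0.0579 to 0.0928. FTL, GCLM and TXNRD1 footprints were 0.33 ± 0.12, 0.39 ± 0.14 and 0.25 ± 0.10 higher and not called (adjusted p = 0.0541, 0.067 and 0.093), so that 4 of the 9 passed an unadjusted p under 0.05. No translation difference between the 2 kinds of senescence was called by edgeR for the 9 genes (0 also at an unadjusted p under 0.05 and by DESeq2) or over all genes, 0% of 11711, where DESeq2 called 6 genes.

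The rest of the pathway was read from lists of other genes. The list counts below stand beside these shares over all genes. Of all mRNAs, 16.2% rose and 18.8% fell in irradiated cells, and 16.8% rose and 17.8% fell in etoposide cells. In quiescent cells 5.18% rose and 10.4% fell. Among 11 regulators of NRF2, 8 mRNAs rose and 0 fell in irradiated cells (median log2 difference 0.61), and 6 rose and 0 fell in etoposide cells (median 0.50). The list mixes KEAP1, which restrains NRF2, with partners such as the small MAF genes, so these counts give no direction for NRF2. SQSTM1, the autophagy receptor that sequesters KEAP1, rose by 1.20 ± 0.16 and 1.35 ± 0.16, and MAFK, a small MAF partner of NRF2, by 0.88 ± 0.16 and 1.35 ± 0.16. NFE2L1, the related factor NRF1, rose by 0.88 ± 0.17 in irradiated cells, and MAFF by 1.09 ± 0.14 in etoposide cells. Of the 11 footprint levels, 6 rose and 1 fell in either senescent state (medians 0.47 and 0.78). Over all genes 19% of footprint levels rose and 21.6% fell in irradiated cells, and 16.8% rose and 17.1% fell in etoposide cells. Footprints of SQSTM1 rose by 1.40 ± 0.09 and 1.30 ± 0.08. In quiescent cells 3 regulators rose and 0 fell, among them SQSTM1 by 0.59 ± 0.16 (adjusted p = 0.0218). That call was lost without cycling library 1 (0.59) or 2 (0.58), without quiescent library 1 (0.49) or 2 (0.53), and with only the 2 states in the fit (0.60), over alternatives with adjusted p from 0.00227 to 0.141. Every list gene described as rising or falling passed an adjusted p of 0.05 in edgeR's test.

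Glutathione and thioredoxin genes beyond the 9 changed in both directions. Of 18 glutathione and cystine genes, 7 mRNAs rose and 3 fell in irradiated and 7 rose and 1 fell in etoposide cells (medians 0.12 and 0.30). Of their footprint levels, 8 rose and 6 fell in irradiated and 6 rose and 1 fell in etoposide cells (medians 0.16 and 0.19). Over all genes, 19% of footprint levels rose and 21.6% fell in irradiated cells, and 16.8% rose and 17.1% fell in etoposide cells. GPX3, the secreted glutathione peroxidase, rose by 3.95 ± 0.39 and 3.17 ± 0.38, the glutaredoxin gene GLRX by 1.23 ± 0.12 and 1.35 ± 0.12, and the glutathione transferase gene GSTM3 by 1.11 ± 0.14 and 1.06 ± 0.14. SLC3A2, the heavy chain of the cystine transporter and of other amino acid carriers, fell by 0.92 ± 0.16 in irradiated cells. Of 11 thioredoxin and peroxiredoxin genes, 6 rose and 1 fell in irradiated and 7 rose and 0 fell in etoposide cells (medians 0.45 and 0.54). Thioredoxin itself, TXN, rose by 1.10 ± 0.18 in either, PRDX6 by 1.16 ± 0.14 and 0.90 ± 0.13, and TXNIP, an inhibitor of thioredoxin, by 2.59 ± 0.20 and 1.78 ± 0.19. PRDX4, the peroxiredoxin of the endoplasmic reticulum, fell from 108 to 38.2 CPM in irradiated cells (adjusted p = 0.000367).

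Among 20 other NRF2 targets for detoxification and heme, 11 mRNAs rose and 1 fell in irradiated and 8 rose and 2 fell in etoposide cells (medians 0.64 and 0.52). The aldo-keto reductase genes AKR1C1 and AKR1B10 rose by 2.04 ± 0.22 and 1.72 ± 0.27 in irradiated and by 2.11 ± 0.22 and 2.12 ± 0.27 in etoposide cells. AKR1C1 has close paralogs that can share its reads, and its value is uncertain. OSGIN1 rose by 1.68 ± 0.31 in irradiated and AKR1B1 by 1.69 ± 0.19 in etoposide cells, while the export pump ABCC3 fell by 1.05 ± 0.21 in irradiated and the carbonyl reductase CBR3 by 1.19 ± 0.21 in etoposide cells. Of 6 enzymes that make NADPH, the reductant that these systems draw on, 2 mRNAs rose and 0 fell in irradiated and 1 rose and 1 fell in etoposide cells. With 2 of 6 called in either state, this was near the share over all genes, 34.9% and 34.5%. TALDO1 rose by 0.84 ± 0.11 and 0.76 ± 0.11, and the malic enzyme ME1 by 0.62 ± 0.13 in irradiated cells. The transketolase gene TKT fell by 0.60 ± 0.20 in etoposide cells (adjusted p = 0.0337), a call lost without cycling library 1 (-0.59) or 2 (-0.62) and without etoposide library 1 (-0.47) or 2 (-0.61), over alternatives with adjusted p from 0.00945 to 0.14. NADPH enzyme footprints differed between the kinds of senescence: 5 of 6 were higher in irradiated than in etoposide cells and 0 lower (median 0.49, all genes 0.06, with 8.82% of all genes higher), among them PGD (0.55 ± 0.10) and TKT (0.49 ± 0.09).

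Iron genes changed in both directions beside ferritin. Of 21 that could be tested, 7 mRNAs rose and 5 fell in irradiated and 8 rose and 2 fell in etoposide cells (medians 0.16 and 0.14). SLC40A1, ferroportin, the cell's iron exporter and an NRF2 target with an iron-responsive element of its own, rose by 3.55 ± 0.21 and 3.21 ± 0.21, and by 1.34 ± 0.20 in quiescent cells. EPAS1, whose mRNA also carries such an element, rose by 2.45 ± 0.16, 2.06 ± 0.16 and 1.35 ± 0.15. STEAP3, an endosomal iron reductase, fell by 1.73 ± 0.19 in irradiated and 1.34 ± 0.19 in etoposide cells. TFRC, the transferrin receptor through which iron enters, fell by 1.09 ± 0.23, and the importer SLC39A14 by 2.11 ± 0.23, in irradiated cells. Against etoposide cells, irradiated cells had lower SLC39A14 (-2.02 ± 0.21), SLC11A2 (-1.48 ± 0.16) and TFRC (-1.19 ± 0.21) mRNA. Among 9 superoxide and peroxide genes outside NRF2's usual targets, 5 rose and 1 fell in either senescent state. The sestrin gene SESN3 rose by 1.71 ± 0.12 and 0.83 ± 0.12, and the oxidase gene NOX4 fell by 1.14 ± 0.23 and 1.45 ± 0.23.

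Under thapsigargin, of 11 regulators 3 mRNAs rose, all small MAF genes, MAFG (1.68 ± 0.13), MAFK (1.42 ± 0.17) and MAFF (1.25 ± 0.15), and 0 fell. Of the 11 regulator footprint levels 6 rose and 2 fell (median 0.57). Among these, MAFG footprints rose by 1.81 ± 0.28 and those of KEAP1 fell by 0.90 ± 0.15. Of 20 other NRF2 detoxification mRNAs 6 fell and 2 rose (median -0.39), where 12.8% of all genes fell and 11.7% rose, and of 18 footprint levels 5 fell and 3 rose (median -0.51). The mRNAs that fell were led by AKR1C3 (-2.43 ± 0.30) and AKR1C1 (-2.11 ± 0.23), with the same caution on paralogs. Of the 6 NADPH enzymes 4 footprint levels fell, PGD by 0.70 ± 0.11 among them, and 0 rose. Over all genes, 23.6% of footprint levels fell and 21.1% rose. SLC40A1 mRNA fell by 2.08 ± 0.22 and TXNIP mRNA by 2.10 ± 0.20. Targets of ATF4, the factor of the integrated stress response, rose in 6 of 10 cases and fell in 0 (median 1.68, all genes -0.03), with DDIT3 at 3.44 ± 0.16, ATF3 at 3.16 ± 0.16, CHAC1 at 2.76 ± 0.18 and SESN2 at 2.52 ± 0.16. In irradiated cells 4 of the 10 ATF4 targets rose and 0 fell, and in etoposide cells 3 rose and 1 fell.

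**Figure D5:**
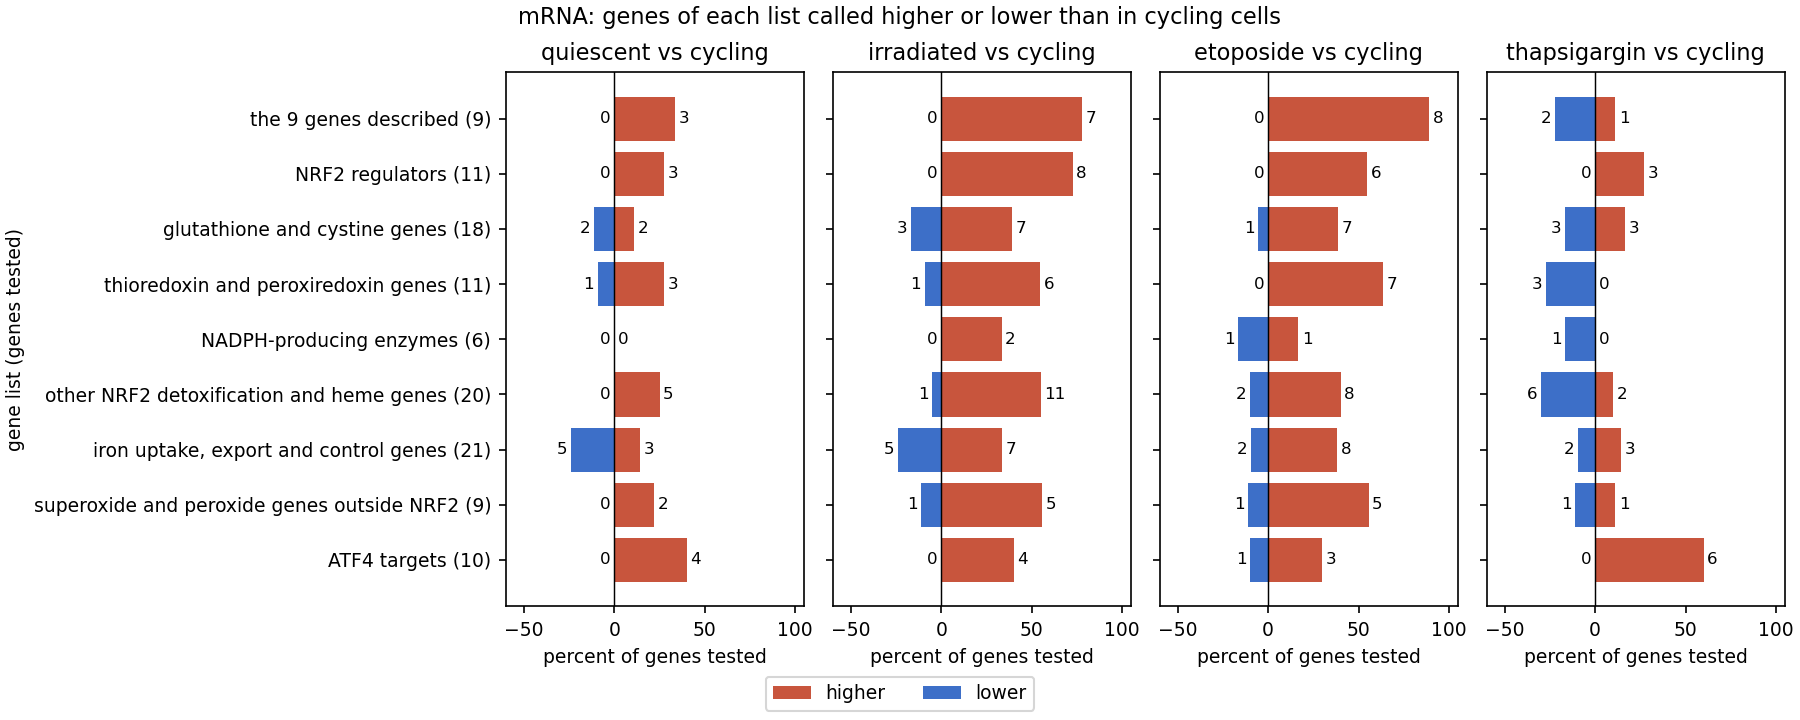
Percent of the tested mRNAs of each list called higher (red, right of 0) or lower (blue, left of 0) than in cycling cells, with the number of genes at each bar, by edgeR at an adjusted p of 0.05. The 9 genes and the NRF2 regulators show bars to the right alone in both senescent states, 7 and 8 in irradiated and 8 and 6 in etoposide cells, and ATF4 targets stand out under thapsigargin with 6.

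Within the 9 genes, profiles over the 13 RNA-seq libraries were alike to differing degrees. These correlations of log2 CPM are given as descriptions, since libraries share states. GCLM and TXNRD1 had r = 0.94 and TXNRD1 and FTL r = 0.92, and in the 14 Ribo-seq libraries 0.81 and 0.93. HMOX1 and FTL had r = 0.75, and 0.97 over the 11 libraries without thapsigargin, whereas HMOX1 and GCLC had r = 0.18 and 0.51. Outside the set, the mRNAs most like a member's were GLRX for TXNRD1 (r = 0.98), DIRAS2 for FTL (0.98), STAT3 for FTH1 (0.99), CTTN for HMOX1 (0.96), RNF32 for GCLM (0.97), HBP1 for GCLC (0.97), VDAC2 for NQO1 (0.96) and TRAF3IP1 for NFE2L2 (0.97). For SRXN1, with its few counts, the best was PPP1R7 at 0.75. Which gene ranked first depended on the measure. By Spearman rho it was the same for NFE2L2 alone, and over the 11 libraries without thapsigargin for no member. The named pairs themselves had values of 0.868 to 0.981 in these alternatives, and PPP1R7 had 0.66 and 0.79.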

How the data were processed

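Gene counts were made by the authors and deposited as one file per library. Reads were aligned to hg38 with STAR 2.7.10b, and bcl2fastq and DESeq2 1.36.0 are also named, per the submitters' processing notes. The deposited counts are whole numbers of uniquely mapped reads per gene, in unstranded and stranded columns. Column 4 was used for RNA-seq and column 3 for Ribo-seq, and reads that map to several places are counted for no gene. Files held 62703 gene identifiers, or 60664 in 12 Ribo-seq files, those of all states but thapsigargin. The 60534 shared ones were used, of which 60461 had a symbol and 19303 were protein coding in RefSeq's table.

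Protein-coding genes were fitted with edgeR 4.0.16 (R 4.3.3) on all 5 states: TMM scaling, filterByExpr, and the quasi-likelihood test, with 13289 genes for RNA-seq, 11762 for Ribo-seq and 11711 for the translation difference, the interaction of library type and state. Adjusted p-values are Benjamini-Hochberg over all genes tested, and CPM are TMM-normalised counts-per-million. In simulated data, 76.5% of 200 genes changed 2-fold between irradiated and cycling cells were recovered in RNA-seq and 78% in Ribo-seq. The simulation gave every gene the same spread and held no other difference between states. Depth was 20635503 to 57119841 counts for RNA-seq and 1936976 to 19996104 for Ribo-seq. The 9 genes and the lists were chosen with earlier results of these data known. From each other list up to 3 called genes with the largest fold change in either direction were eligible to be named, and for each of the 9 genes the 3 genes with the highest Pearson r. SOD2 had no identifier here and was not used. The values of 1 other list gene that the rule selects are not reported here.

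Replicate numbers come from the labels. With 3 pairs or more, every same-numbered pair deviated together with r over 0.1 for quiescent against cycling Ribo-seq (r = 0.168 to 0.292, 3 pairs) and, between RNA-seq and Ribo-seq of a state, for etoposide (0.141 to 0.418, 3 pairs), beside cycling (0.152 to 0.199, 2 pairs). For thapsigargin against cycling RNA-seq, r was 0.307 in both of 2 pairs, which 2 libraries per state make equal. With the replicate block, 2 of the 9 genes were called in quiescent footprints, as without it, and in the etoposide translation difference 0 of the 9 and 11 of all genes, against 0 and 8. Alternatives were DESeq2 1.42.0, its size factors, other filters, all gene classes, both strands, only the states compared, a replicate block, leaving out each library, and, chosen after seeing the data, leaving out thapsigargin libraries and adding ferritin pseudogene counts. The labels call the 4 thapsigargin libraries protected fragments in one field, and their library type was taken from the titles. The series text and the sample protocols give different RNase I incubation times, and the sample protocols give the same one for every library.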

Additional observations from a re-analysis of the deposited data

Results flagged for a closer look

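HMOX1 footprints differed between the kinds of senescence, by 0.62 on the log2 scale in favour of irradiated cells, with libraries at 202, 190 and 214 CPM against 106, 123 and 165 CPM (adjusted p = 0.015, edgeR, 3 against 3 libraries). The call was lost without etoposide library 1 (0.47) or 2 (0.54) and without irradiated library 1 (0.60) or 3 (0.58), over alternatives with adjusted p up to 0.0928.

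A signal lay on the strand opposite NFE2L2, in a column that no comparison used: 17.2% of the RNA-seq counts at this gene over all libraries, 754 to 4565 per library and above the limit that a count of 0 allows in each. The share was 21.1 to 24.4% in cycling, 14.5 to 22.5% in quiescent, 11.5 to 12.7% in irradiated, 9.45 to 12.8% in etoposide and 18.9 to 31.8% in thapsigargin RNA. In Ribo-seq the same strand had 0 to 5 counts per library. Over all genes, 5.41 to 10.7% of RNA-seq counts lay on the opposite strand. The limit was 3 counts, and FTH1 and FTL also passed it in each RNA-seq library, with 0.0335% and 0.00785% of their counts. Passing it thus does not set NFE2L2 apart.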

How the results depend on the processing

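Of 45 results called for the 9 genes, 28 were called under every alternative run and 0 changed sign; of 83 called for genes of the other lists, 81 were, the exceptions being SQSTM1 mRNA in quiescent and TKT mRNA in etoposide cells. The cause of the changes below was not tested. With only the states compared in the fit, the number of the 9 genes called went from 3 to 1 in quiescent and in thapsigargin mRNA, from 0 to 3 in mRNA and from 1 to 3 in footprints between irradiated and etoposide cells, from 4 to 2 in thapsigargin footprints, and from 0 to 1 in the translation difference of irradiated cells. Lost in quiescent mRNA were HMOX1 (0.61, adjusted p = 0.104), GCLC (0.54, 0.0786) and FTL, while FTH1 was gained. Lost in thapsigargin cells were NQO1 (-0.42, adjusted p = 0.144) and TXNRD1 mRNA (-0.48, 0.105), and GCLM (-0.66, 0.0823) and GCLC footprints (-0.69, 0.0588). DESeq2 called 4 for 2 in quiescent footprints, and between the kinds of senescence 3 for 1 in footprints and 1 for 0 in mRNA. Without the thapsigargin libraries that footprint count was 2. With all gene classes, 2 translation differences were called under thapsigargin in place of 1. With both strands counted, FTH1 turned to -0.68 in quiescent footprints and 0.34 in thapsigargin mRNA; that column held 8.20% and 9.46% of its stranded counts in RNA-seq and Ribo-seq. SRXN1 footprints under thapsigargin were at -0.0139 with all gene classes, -0.0081 with DESeq2, -0.0018 with its size factors, -0.0761 with no filter and -0.0104 with only the states compared.

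With each library left out in turn, the number called in mRNA ran from 0 to 3 in quiescent, 6 to 7 in irradiated, 3 to 6 in etoposide and 1 to 3 in thapsigargin cells, and 0 to 1 between the kinds of senescence. In footprints it ran from 1 to 4, 8 to 8, 8 to 8 and 3 to 4, and 0 to 1. In the translation difference it was 0 to 0 everywhere but thapsigargin, 1 to 3. Signs changed, all in results that were not called, for FTH1 (-1.09 to 0.30), FTL (-0.0204 to 0.16) and GCLM (-0.43 to 0.19) in thapsigargin mRNA, for FTH1 (-0.63 to 0.33), FTL (-0.13 to 0.12), NFE2L2 (-0.18 to 0.48) and SRXN1 (-1.36 to 0.72) in thapsigargin footprints, for GCLM in quiescent mRNA (-0.22 to 0.0082), for SRXN1 in quiescent footprints (-0.0737 to 0.85), and for GCLC footprints between the kinds of senescence (-0.15 to 0.0308).

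Over all genes, only the states compared gave 853 for 2068 calls in quiescent mRNA, 1506 for 3254 in thapsigargin mRNA, 6022 for 3986 in etoposide footprints, 4135 for 2652 in footprints between the kinds of senescence, and 1053 for 2427 thapsigargin translation differences. Translation differences called in irradiated cells were 6, and 758 with only the states compared, 32 with DESeq2, 13 without thapsigargin libraries, 10 with all gene classes, 3 with the stricter filter and 2 with the replicate block. In etoposide cells they were 8, against 28, 40 and 15 under the first 3 of these settings. Between the kinds of senescence they were 0, against 606 with only the states compared, 6 with DESeq2 and 1 with the block, and in quiescent cells 1, against 0 to 6. Leaving out single libraries gave 707 to 2242 calls in quiescent, 1591 to 3405 in thapsigargin, 2611 to 3993 in etoposide (4588 with all), 2778 to 3903 in irradiated mRNA (4643) and 1841 to 2313 between the kinds of senescence (2998), 1500 to 2044 in footprints between those kinds and 1559 to 2933 in quiescent footprints (2631), 1 to 5 translation differences in irradiated, 5 to 8 in etoposide, 0 to 3 in quiescent and 1558 to 3772 in thapsigargin cells.

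Outside quiescent footprints, thapsigargin mRNA, the etoposide translation difference and the library types of cycling cells, the check did not show same-numbered replicates to be paired. In those comparisons the replicate block ended the calls of GCLC (0.31, adjusted p = 0.0774), NQO1 (0.31, 0.0844) and TKT (-0.55, 0.0702) in etoposide mRNA and HMOX1 in quiescent mRNA (0.61, 0.072), and made that of HMOX1 in thapsigargin footprints (0.52, 0.0365). Few libraries and 1936976 to 2044900 counts limit the thapsigargin footprints, and 2 to 21 counts limit SRXN1 mRNA.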
